A study of Mus musculus with 24 samples.

Results

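The hypoxia-inducible factors (HIFs) and the enzymes that control them were examined as a family of 8 genes chosen by name: the alpha subunits Hif1a and Epas1, the beta subunit Arnt, the prolyl hydroxylases Egln1, Egln2 and Egln3, the asparaginyl hydroxylase Hif1an and the ubiquitin ligase subunit Vhl. The choice was made with earlier results of these data known. All 8 were among the 17301 genes of the deposited table, and all 8 passed the filter that left 12878 genes for testing.

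The libraries came from myeloid cells sorted from the colon of pooled mice, so that each library represents a pool and not 1 animal. The mice were a few months old, and the p-values below measure the spread between such pools. Lamina propria (LP) libraries are labelled with the strain C57/BL and tumour libraries with the strain APC/Min. The latter mice carry a germline Apc mutation (Apc Min/+) and develop intestinal adenomas. The methods describe dextran sodium sulphate in the drinking water, which injures the colon epithelium, for both strains, whereas the labels call the LP healthy, so the treatment of the LP mice is not settled. In each tissue, F4/80hi macrophages with high or low MHC class II (MHCIIhi and MHCIIlow), monocytes (F4/80int, Ly6Chi, MHCII-) and neutrophils (F4/80-, CD11b+) were sorted, with 3 libraries in each of the 8 groups and 24 in all. Cell isolation also differed by tissue in the methods. The LP was stripped of epithelium with EDTA before digestion with collagenase, whereas tumours were cut out and digested with collagenase and DNase. The digestion times and Percoll steps differed as well. Tissue, strain, cell isolation and any difference in treatment run together in this design and cannot be told apart. In bulk RNA, fewer cells of a type within a sorted gate and less RNA per cell cannot be told apart either.

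HIF is a heterodimer of an unstable alpha subunit (HIF-1alpha from Hif1a or HIF-2alpha from Epas1) and a stable beta subunit (ARNT). When oxygen is available, the EGLN (PHD) enzymes hydroxylate prolines of the alpha subunit, the VHL protein recognises the hydroxylated form and marks it for degradation, and HIF1AN (FIH) hydroxylates an asparagine that blocks the binding of coactivators. In myeloid cells HIF-1alpha is known for driving glycolysis and for the survival and function of neutrophils in inflamed tissue, and Egln3 is itself a well known HIF target. Control of the alpha subunits is largely on the protein, which RNA levels do not measure.

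The start-site regions of 4 regulators are shown here because they had the largest tumour minus LP differences among members that passed the test: Egln2 and Hif1an fell, Egln3 rose, and Vhl rose or fell with the population. The sequences are from RefSeq on GRCm38.p6, read 5′ to 3′ on the strand of the gene, from 250 bases before to 50 after an annotated start. Capitals mark each match on either strand to the core of the hypoxia response element, ACGTG or GCGTG (on the opposite strand CACGT or CACGC). The Egln2 window is chr7:27166753-27167052, the Egln3 window chr12:54203825-54204124, the Vhl window chr6:113623744-113624043 and the Hif1an window chr19:44562604-44562903, with Egln2 and Egln3 on the minus strand.
Egln2: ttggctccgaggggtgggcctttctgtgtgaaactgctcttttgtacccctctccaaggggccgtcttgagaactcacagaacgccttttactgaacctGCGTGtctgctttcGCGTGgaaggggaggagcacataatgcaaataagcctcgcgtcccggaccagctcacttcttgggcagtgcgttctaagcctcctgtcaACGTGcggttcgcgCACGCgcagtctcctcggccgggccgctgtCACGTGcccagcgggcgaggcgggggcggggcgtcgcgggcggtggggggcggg
Egln3: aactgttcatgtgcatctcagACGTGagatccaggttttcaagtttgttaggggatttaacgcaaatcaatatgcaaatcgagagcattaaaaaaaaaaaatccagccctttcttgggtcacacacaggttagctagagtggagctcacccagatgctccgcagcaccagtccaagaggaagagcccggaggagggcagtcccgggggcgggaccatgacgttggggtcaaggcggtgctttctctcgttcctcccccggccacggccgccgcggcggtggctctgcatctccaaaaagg
Vhl: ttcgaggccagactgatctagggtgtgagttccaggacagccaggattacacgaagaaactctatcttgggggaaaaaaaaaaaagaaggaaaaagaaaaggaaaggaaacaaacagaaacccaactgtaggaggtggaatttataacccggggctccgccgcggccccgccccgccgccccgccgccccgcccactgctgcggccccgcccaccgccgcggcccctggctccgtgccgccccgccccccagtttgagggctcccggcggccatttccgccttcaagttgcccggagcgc
Hif1an: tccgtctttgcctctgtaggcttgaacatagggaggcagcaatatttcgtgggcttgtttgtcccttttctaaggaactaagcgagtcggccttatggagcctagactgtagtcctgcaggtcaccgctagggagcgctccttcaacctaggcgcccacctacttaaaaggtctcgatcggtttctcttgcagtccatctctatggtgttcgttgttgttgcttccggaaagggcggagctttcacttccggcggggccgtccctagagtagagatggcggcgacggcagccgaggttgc

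The Egln2 window held 5 separate places with a match, among them CACGTG, which matches on both strands, and 0.791% of all 32851 RefSeq start windows of the same length held at least as many. The Egln3 window held 1 match, as did the Arnt window, and 43.8% of all windows held at least 1. The Hif1a and Egln1 windows held matches at 2 places each, a number reached by 17.3% of all windows, whereas the Vhl and Hif1an windows held none. A second annotated Egln2 start had 1 match. Windows were found for 7 members, and Epas1 was not among them. These matches describe letters in a window and say nothing of binding.

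Libraries held 12.8 to 41.7 M reads on genes (median 26.4 M), and libraries of a group correlated with r between 0.813 and 0.925 across genes. Macrophage libraries summed 3470 to 7460 RPKM over 8 macrophage markers against 192 to 807 in the other gates, and neutrophil libraries 12100 to 35100 RPKM over 9 neutrophil markers against 23.4 to 304 elsewhere. The 6 monocyte markers summed 808 to 3190 RPKM in monocytes but also 646 to 1280 in neutrophils. The 5 MHC class II genes summed 39000 to 45700 RPKM in LP MHCIIhi against 878 to 3890 in LP MHCIIlow macrophages, and 16700 to 41100 against 2120 to 9860 in tumours. Markers of other cells differed between tissues. The 6 B and plasma cell markers summed 157 to 1300 RPKM in LP monocytes and neutrophils against 0.167 to 20.1 in their tumour counterparts, and the 8 fibroblast markers 7.81 to 63.4 RPKM in LP libraries against 0.382 to 1.77 in tumour libraries. The 5 dendritic cell markers summed 44.3 to 65.3 RPKM in LP and 5.04 to 14.3 in tumour MHCIIhi macrophages, 28.8 to 39.6 and 8.14 to 27.6 in monocytes and 75.6 to 147 and 2.45 to 18.3 in neutrophils, whereas the ranges in MHCIIlow macrophages overlapped (3.79 to 14.1 and 3.48 to 5.4). That sum was mostly Ccr7, with 88.1% to 98% of it in LP MHCIIhi macrophages, monocytes and neutrophils. Ccr7 is also expressed by B and T cells. In monocytes Ccr7 alone of the 5 fell without overlap, and Flt3 was higher in tumours (mean log2 RPKM of -1.35 and 0.58). In MHCIIhi macrophages Zbtb46 and Xcr1 were lower as well, and in neutrophils Xcr1. The 3 erythroid markers summed 0 to 0.583 RPKM in LP and 0.971 to 16.8 in tumour libraries. The fibroblast and erythroid lists thus moved in all 4 populations, beside every tumour difference given here, and their part in those was not tested. The 9 epithelial markers summed 157 to 310 RPKM in tumour neutrophils against 13.2 to 62.2 in LP neutrophils. Counted by gene, 8 of the 9 were higher in tumour neutrophils without overlap, 3 in tumour monocytes (Krt8, Krt18 and Vil1) and 2 in each tumour macrophage subset (Epcam and Krt18 in MHCIIhi, Cdh1 and Krt18 in MHCIIlow), and Muc2 was lower in MHCIIlow. All 5 MHC class II genes were lower in tumour monocytes and neutrophils, and 5 of the 12 endothelial markers in each of these. Of all deposited genes, 13.1% to 18.4% were higher and 12.5% to 18% lower without overlap in a population. The library sizes implied by the deposited values were 0.466 to 0.682 times the summed reads in neutrophils and 0.981 to 1.51 times in the other populations. With summed reads as library sizes, a scaling chosen after seeing the data, the median of all genes moved by -0.83 (LP) and -1.13 (tumour) on the log2 scale for neutrophils against monocytes and by -0.47 for tumour against LP neutrophils. The shift was between -0.16 and 0.41 for comparisons without neutrophils. Such a scaling moves all genes of a library alike. A call or sign that changes under it carries that shift and says nothing of a single gene. Which of the scalings is nearer to the levels in the cells was not tested.

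A first comparison asked which members differed between tumour and LP in each population. In MHCIIhi macrophages 2 of the 8 members passed the test (limma, adjusted p under 0.05), where 19.5% of all genes tested did so. In MHCIIlow macrophages 4 passed against 23.3% of genes, in monocytes 2 against 9.29%, and in neutrophils 3 against 32.2%. Egln2 fell in each of the 4 populations, Hif1an in 3 of them, and Hif1a in none. With 3 libraries a group, an exact permutation test of a single gene cannot go below p = 0.1, so the calls rest on limma, which shares the spread across genes and groups.

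**Figure D1:**
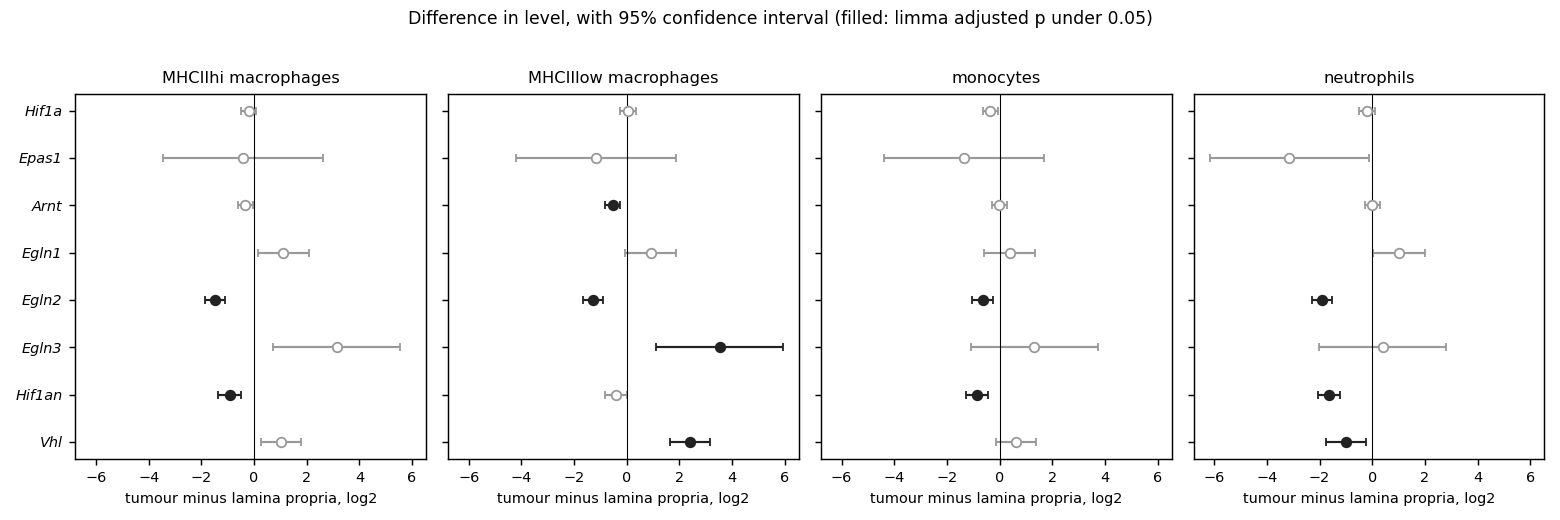
Tumour minus LP difference in log2 RPKM (horizontal axis) for the 8 members in each of the 4 populations, with 95% confidence intervals from limma. Filled points passed an adjusted p of 0.05 and lie to the left of 0 for Egln2 in every panel, whereas Vhl is right of 0 in MHCIIlow macrophages (2.39) and left of it in neutrophils (-0.99).

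A second set compared populations within a tissue. Between MHCIIlow and MHCIIhi macrophages 1 member passed in LP (7.7% of all genes) and 1 in tumours (1.13% of all genes), Arnt in both. Against monocytes of the same tissue, 4 members passed in LP MHCIIhi macrophages (20.1% of genes), 4 in LP MHCIIlow macrophages (29.5%), 3 in tumour MHCIIhi macrophages (32.1%) and 3 in tumour MHCIIlow macrophages (32%). Neutrophils against monocytes gave 3 members in LP (54.5% of genes) and 3 in tumours (58.1%). These comparisons share their monocyte libraries.

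Hif1a, the HIF-1alpha gene (GRCm38 chr12:73901375-73947530, plus strand), was the member with the highest level in every group and differed mainly between cell types. In log2 RPKM, a level per gene length and library size, LP neutrophils were at 8.57, 8.59 and 8.30 and tumour neutrophils at 8.26, 8.22 and 8.38. LP monocytes were at 8.03, 8.38 and 8.04 and tumour monocytes at 7.92, 7.60 and 7.90. The 12 macrophage libraries lay between 5.80 and 6.32, below each of the 12 monocyte and neutrophil libraries. The difference from monocytes was -1.95 in LP MHCIIhi macrophages (SE 0.14, adjusted p = 5.87e-09, 3.86-fold) and -2.09 in LP MHCIIlow macrophages (adjusted p = 1.42e-09), and in tumours -1.81 (adjusted p = 4.29e-09) and -1.70 (adjusted p = 1.31e-08), and each passed in all 13 alternatives tried.

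Between tissues the Hif1a level was not shown to differ in any population. Tumour minus LP was -0.21 in MHCIIhi macrophages (95% interval -0.50 to 0.08), 0.04 in MHCIIlow macrophages (-0.25 to 0.34), -0.35 in monocytes (-0.64 to -0.05, adjusted p = 0.137) and -0.20 in neutrophils (-0.49 to 0.10). The monocyte ranges did not overlap, with each tumour library lower, and that difference passed with quantile normalization (-0.59, adjusted p = 0.0151) and with summed-read library sizes (-0.51, adjusted p = 0.0296). With the latter the neutrophil difference also passed, at -0.66 (adjusted p = 0.00111), but that scaling moved the median of all genes by -0.47, to -0.59.

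The order of neutrophils and monocytes for Hif1a depended on the scaling. In tumours the difference was 0.48 (SE 0.14, adjusted p = 0.00604) and in LP 0.33 (adjusted p = 0.0511, or 0.0448 with the donor number as a block). Both changed sign with quantile normalization, to -0.68 and -0.88, and with summed-read library sizes, to -0.65 and -0.49. The latter scaling moves all genes of a library alike, and the medians of all genes were then -1.49 in tumours and -1.07 in LP. The annotated exons of Hif1a share 8.11% of their bases with Gm15283, an antisense gene, and Gm49321, so the assignment of that part of its reads is uncertain.

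Arnt, the beta subunit that dimerises with either alpha subunit (chr3:95434388-95497240, plus strand), had its lowest deposited values in MHCIIlow macrophages. Its LP MHCIIlow libraries were at 3.22, 3.23 and 3.22 log2 RPKM and its tumour MHCIIlow libraries at 2.83, 2.49 and 2.74. LP MHCIIhi libraries were at 3.94, 3.64 and 3.77 and tumour MHCIIhi libraries at 3.61, 3.44 and 3.31. The 4 groups did not overlap, in the order LP MHCIIhi, tumour MHCIIhi, LP MHCIIlow and tumour MHCIIlow. Monocytes (4.06 to 4.26) and neutrophils (4.24 to 4.70) were above all macrophages. The place of neutrophils depended on the scaling. With summed-read library sizes they were at 3.74 to 3.86 in LP and 3.14 to 3.60 in tumours, against 3.84 to 4.18 in LP MHCIIhi, 3.74 to 3.84 in tumour MHCIIhi, 3.62 to 3.72 in LP MHCIIlow and 2.88 to 3.33 in tumour MHCIIlow macrophages, where the MHCIIhi groups overlapped. Monocytes were then still highest, at 4.20 to 4.51.

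Arnt fell in tumour MHCIIlow macrophages by 0.54 (SE 0.14, adjusted p = 0.00596), a call made in all 13 alternatives. In MHCIIhi macrophages tumour minus LP was -0.33 (adjusted p = 0.0941), and the difference between these tumour effects was -0.21 (95% interval -0.61 to 0.20, adjusted p = 0.781). In monocytes and neutrophils tumour minus LP was under 0.01 in size, with intervals of -0.29 to 0.28 and -0.28 to 0.29. With summed-read library sizes the neutrophil value was -0.47 (adjusted p = 0.0107). That is the shift of the median of all genes under this scaling (-0.47). The smaller deposited value rests on its own scaling in the same way, and the choice between them was not tested. MHCIIlow macrophages were lower than MHCIIhi macrophages by -0.56 in LP (adjusted p = 0.0143) and by -0.77 in tumours (adjusted p = 0.00822). The LP difference was lost with summed-read library sizes (-0.31, adjusted p = 0.181) and without LP MHCIIhi library III (adjusted p = 0.084), and the tumour difference with only the compared libraries (adjusted p = 0.238) and without tumour MHCIIlow library V (adjusted p = 0.0665). Against monocytes, Arnt was lower in LP MHCIIhi macrophages by -0.40 (adjusted p = 0.0433), a call made in 7 of 13 alternatives and lost without LP MHCIIhi library IV (adjusted p = 0.171) or V (0.105) and without LP monocyte library III (0.111) or IV (0.122). It was also lower in LP MHCIIlow macrophages (-0.96, adjusted p = 1.98e-05), in tumour MHCIIhi macrophages (-0.73, or -0.46 with summed-read library sizes) and in tumour MHCIIlow macrophages (-1.49, adjusted p = 4.65e-08).

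Epas1, the HIF-2alpha gene (chr17:86753700-86833410, plus strand), was low in every population. Its 24 libraries held 0 to 363 reads, against 7584 to 86552 for Hif1a, and group means lay between 0.32 and 1.93 RPKM. LP MHCIIlow macrophages had the highest mean, at 0.59, 1.22 and 0.97 log2 RPKM, and above the LP MHCIIhi libraries at 0.42, -2.48 and -1.51. That difference of 2.12 had an adjusted p of 0.47 on the deposited scale and passed on the log2(RPKM + 1) scale (0.91, adjusted p = 0.0389). No Epas1 comparison passed on the deposited scale with all libraries, and tumour minus LP was -0.42, -1.18, -1.36 and -3.15 in MHCIIhi macrophages, MHCIIlow macrophages, monocytes and neutrophils. Tumour neutrophil library II held 0 reads, and its listed value of -9.23 is set by the prior count. The neutrophil difference passed in 1 of 13 alternatives, without tumour library I (-4.79, adjusted p = 0.0166), where the library without reads weighs more. Over the alternatives it ranged from -4.79 to -0.33. Tumour neutrophils minus tumour monocytes was -2.88 (adjusted p = 0.0965), and it passed with summed-read library sizes (-4.01, adjusted p = 0.0196) and without tumour neutrophil library I (-4.51, 0.0118) or V (-3.93, 0.0412), but was -0.19 (adjusted p = 0.888) without library II, the one with 0 reads. Epas1 is abundant in endothelium, and 12 endothelial markers summed 3.44 to 3.92 RPKM in neutrophils of the LP and 0.433 to 0.7 RPKM in those of tumours, where 8 of the 12 (Cdh5 and Kdr among them) were at or under 3 reads in every library. In LP and tumour monocytes the sums were 4.48 to 8.38 and 0.583 to 1.35. Their part in the Epas1 values was not tested.

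**Figure D2:**
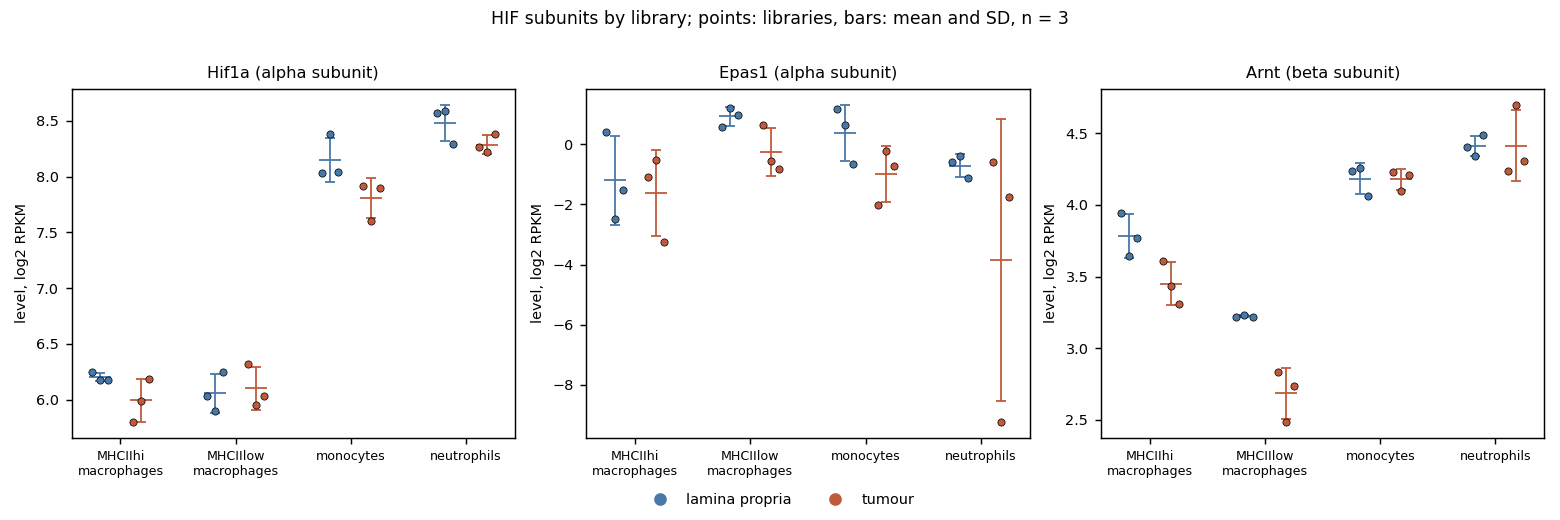
Levels of Hif1a, Epas1 and Arnt in log2 RPKM (vertical axes, each with its own scale) in each library, by population, with LP in blue and tumour in red. Points are libraries, and bars give the mean and SD of 3. Macrophage libraries reach at most 6.32 for Hif1a and monocyte and neutrophil libraries are at 7.60 or above, and the lowest Epas1 point is a library with 0 reads.

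Egln2, the PHD1 prolyl hydroxylase (chr7:27158658-27166802, minus strand), fell in tumours in each population. LP MHCIIhi libraries were at 5.72, 5.53 and 5.58 log2 RPKM and tumour MHCIIhi libraries at 4.18, 4.57 and 3.68. LP MHCIIlow libraries were at 5.43, 5.24 and 5.41 and tumour MHCIIlow libraries at 4.05, 4.20 and 3.96. In neutrophils the LP values were 5.37, 5.59 and 5.40 and the tumour values 3.60, 3.57 and 3.49. The monocyte values were closer, with LP libraries at 4.80, 5.38 and 5.49 and tumour libraries at 4.58, 4.70 and 4.44. All 12 LP libraries lay above all 12 tumour libraries, with 4.80 as the lowest LP and 4.70 as the highest tumour value. By summed-read library sizes this held within each population but not across them, with 4.71 as the lowest LP value (a neutrophil library) and 4.87 as the highest tumour value (a MHCIIhi library).

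The Egln2 fall was by 1.47 in MHCIIhi macrophages (SE 0.18, 2.76-fold, adjusted p = 8.23e-06), by 1.29 in MHCIIlow macrophages (2.44-fold, adjusted p = 2.74e-05) and by 1.90 in neutrophils (3.74-fold, adjusted p = 3.37e-07). These were called in all 13 alternatives, with adjusted p up to 0.0131. In monocytes it fell by 0.65 (adjusted p = 0.0292). That call was lost with only the compared libraries (adjusted p = 0.119) and without LP monocyte library IV (0.1) or V (0.144) or tumour monocyte library I (0.0765) or V (0.101), with differences from -0.51 to -0.86 over the alternatives. The tumour effect was larger in neutrophils than in monocytes by -1.25 (SE 0.26, adjusted p = 0.00457), where 1 member of 8 passed and 9.11% of all genes did. It was also larger in macrophages than in monocytes by -0.73 (adjusted p = 0.0439), again the 1 member to pass, against 9.19% of genes. The latter passed in 9 of 25 alternatives and was -0.52 (adjusted p = 0.162) without LP monocyte library III. It was also lost, with adjusted p up to 0.116, without LP MHCIIhi library III, IV or V, LP MHCIIlow library II or IV, tumour MHCIIhi library I or VII, tumour MHCIIlow library I or VII, or tumour monocyte library I, II or V. The B and plasma cell markers, which fell in tumour monocytes and neutrophils, summed 15 to 26.5 RPKM in LP MHCIIhi and 6.63 to 15.3 in tumour MHCIIhi macrophages, where Egln2 fell 2.76-fold, and 11 to 229 RPKM in LP MHCIIlow against 6.33 to 69.2 in tumour MHCIIlow macrophages. Mzb1 was at or under 3 reads in every tumour monocyte and neutrophil library. The fibroblast markers were lower in tumours without overlap in all 4 populations, as Egln2 was, and Ccr7, which makes up most of the dendritic cell sum, in all but MHCIIlow macrophages. Flt3 of the same list was higher in tumour monocytes. The part of these genes in the result was not tested.

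Within LP, Egln2 group means lay between 5.22 (monocytes) and 5.61 (MHCIIhi macrophages), and neighbours in that order overlapped. On summed-read library sizes LP neutrophils were instead lowest, at 4.71 to 5.04 against 5.07 to 5.96 in the other LP libraries. In tumours monocytes were highest (mean 4.57) and neutrophils lowest (mean 3.55), below every other tumour library. Tumour neutrophils were lower than tumour monocytes by -1.02 (adjusted p = 7.72e-05), or by -2.16 with summed-read library sizes, and in LP the difference was 0.23 (adjusted p = 0.292), but -0.59 (adjusted p = 0.005) with that scaling. Tumour MHCIIlow macrophages were lower than tumour monocytes by -0.50 (adjusted p = 0.0404), a difference of -0.09 (adjusted p = 0.712) with summed-read library sizes and -0.32 (adjusted p = 0.193) with quantile normalization. It was also not called without filter (adjusted p = 0.0532) or without tumour MHCIIlow library I (0.0857) or VII (0.126) or tumour monocyte library I (0.0878) or II (0.129).

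Egln3, the PHD3 prolyl hydroxylase (chr12:54178981-54203860, minus strand), had its highest deposited values in neutrophils, followed by monocytes. Neutrophils were at 5.54, 5.96 and 5.55 log2 RPKM in LP and at 6.08, 6.09 and 6.09 in tumours. LP monocytes were at 3.93, 3.15 and 2.58 and tumour monocytes at 3.98, 4.39 and 5.26. LP MHCIIlow macrophages were at -0.92, -2.49 and -2.21, from 10 to 58 reads, and tumour MHCIIlow macrophages at 2.38, 0.99 and 1.56, from 219 to 368 reads. LP MHCIIhi macrophages held 32, 28 and 0 reads and tumour MHCIIhi macrophages 91, 12 and 88. Neutrophils, monocytes and tumour MHCIIlow macrophages each had higher Egln3 in tumours without overlap, whereas the MHCIIhi groups overlapped. With summed-read library sizes Egln3 was at 29.4 to 42.4 RPKM in LP and 31.7 to 32.8 in tumour neutrophils and at 7 to 18.5 in LP and 15.4 to 39.9 in tumour monocytes, so that the tissues overlapped in both and tumour monocytes overlapped with neutrophils.

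Egln3 rose in tumour MHCIIlow macrophages by 3.52 (SE 1.16, adjusted p = 0.0319), from a mean of 0.31 to 3.38 RPKM. On the log2(RPKM + 1) scale the rise was 1.69 (adjusted p = 0.000485) and by voom on recovered reads 3.29, which also passed. The call was lost without LP MHCIIlow library III (adjusted p = 0.0939) or IV (0.0854) and without tumour MHCIIlow library I (0.103) or VII (0.0695), where the difference stayed between 3.15 and 3.56. The 9 neutrophil markers summed 23.4 to 35.2 RPKM in LP and 46 to 56 RPKM in tumour MHCIIlow macrophages, against 24100 to 35100 in tumour neutrophils, where Egln3 averaged 68 RPKM. Within that list, Mmp8 had 2 to 166 reads in LP and 497 to 1423 in tumour MHCIIlow libraries, with mean log2 RPKM of -0.75 and 3.38. Means were also higher in tumours for Retnlg (-4.61 and -0.02), S100a8 (0.89 and 2.78) and S100a9 (-0.56 and 2.13). Csf3r was at 4.50 and 4.53, Ly6g had 0 reads in LP and 0 to 40 in tumour libraries, and Camp had 0 reads in either group. The part of these markers was not tested. In MHCIIhi macrophages tumour minus LP was 3.14 (adjusted p = 0.0632), a value that depends on the library with 0 reads: it was 1.05 without that library (LP MHCIIhi V) and 0.58 on the log2(RPKM + 1) scale. It passed without LP MHCIIhi library III (4.28, adjusted p = 0.0189) or IV (4.08, 0.0305) and without tumour MHCIIhi library V (4.31, 0.0152).

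Each Egln3 difference between groups had an SE of 1.16 on the deposited scale, which includes the library with 0 reads. In monocytes tumour minus LP was 1.32 (adjusted p = 0.569), and it passed by voom (1.36, adjusted p = 0.016) and on the log2(RPKM + 1) scale (1.23, adjusted p = 0.017). In neutrophils tumour minus LP was 0.40 (adjusted p = 0.83). Neutrophils minus monocytes was 2.46 in LP (adjusted p = 0.0783) and 1.54 in tumours (adjusted p = 0.264), and by voom 2.50 (adjusted p = 4.14e-06) and 1.56 (adjusted p = 0.000513). These became 1.63 (adjusted p = 0.23) and 0.41 (adjusted p = 0.768) with summed-read library sizes. LP macrophages were lower than LP monocytes by -7.28 for MHCIIhi (adjusted p = 0.000121, -3.16 on the log2(RPKM + 1) scale) and by -5.10 for MHCIIlow (adjusted p = 0.00219, -3.00 on that scale), and tumour MHCIIhi macrophages lower than tumour monocytes by -5.46 (adjusted p = 0.00102). The value of -7.28 rests in part on LP MHCIIhi library V with 0 reads, listed at -8.23 by the prior count. It ranged from -8.42 to -3.16 over the alternatives and passed in each. Tumour MHCIIlow macrophages minus tumour monocytes was -2.90 (adjusted p = 0.0616), and -2.98 by voom (adjusted p = 5.06e-05).

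Egln1, the PHD2 prolyl hydroxylase and the main regulator of HIF-1alpha in most tissues (chr8:124908587-124949324, minus strand), was low, with group means from 0.77 to 4.30 RPKM and 21 to 578 reads a library. LP monocytes were at 1.35, 1.82 and 1.89 log2 RPKM and tumour monocytes at 1.62, 2.34 and 2.26. LP neutrophils were at -1.57, 0.30 and -0.43 and tumour neutrophils at 0.87, 0.83 and -0.36, so that neutrophils were lower than monocytes in either tissue. The difference was -2.25 in LP (adjusted p = 0.000399, -1.29 on the log2(RPKM + 1) scale) and -1.62 in tumours (adjusted p = 0.00544, -1.08 and adjusted p = 0.067 with quantile normalization, -2.76 with summed-read library sizes). LP MHCIIhi macrophages, at 0.05, 0.04 and 0.11, were lower than LP monocytes by -1.62 (adjusted p = 0.0175, -1.04 on the log2(RPKM + 1) scale). That call was lost without LP MHCIIhi library IV (adjusted p = 0.0501) and without LP monocyte library IV (0.0543) or V (0.0617).

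Tumour minus LP for Egln1 was above 0 in each population and passed in none. It was 1.11 in MHCIIhi macrophages (adjusted p = 0.104), 0.91 in MHCIIlow macrophages (adjusted p = 0.179), 0.39 in monocytes (adjusted p = 0.703) and 1.02 in neutrophils (adjusted p = 0.103). The MHCIIhi groups did not overlap, with tumour libraries at 1.51, 0.75 and 1.28, and that difference passed with only the compared libraries (adjusted p = 0.0411). The neutrophil difference passed without LP library IV (1.45, adjusted p = 0.0291) or tumour library V (1.42, adjusted p = 0.0336).

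The make-up of the prolyl hydroxylase transcripts, which a single factor for each library cannot change, differed between populations and tissues. Of the summed RPKM of Egln1, Egln2 and Egln3, Egln2 made up 97.4% to 97.8% in LP MHCIIhi macrophages and 78.2% to 93% in tumour MHCIIhi macrophages. In MHCIIlow macrophages it was 94.6% to 97% in LP and 70.4% to 76.2% in tumours. In each macrophage subset no library of a tissue reached into the range of the other. In neutrophils Egln3 was the leading enzyme and made up 52.2% to 55.8% in LP and 83% to 84.9% in tumours. Quantile normalization, which is not a single factor, gave Egln2 shares of 98% to 98.2% in LP and 82.1% to 94.8% in tumour MHCIIhi macrophages and 96.2% to 98.3% and 75.2% to 80.3% in MHCIIlow macrophages, and Egln3 shares of 51.8% to 54.4% and 75.7% to 78.4% in neutrophils, again without overlap. In monocytes the Egln3 share was 33.5%, 16.5% and 11% in LP and 36.9%, 40.3% and 59% in tumours. The summed level was lower in tumour macrophages, at 16.4 to 25.6 RPKM against 39 to 54.2 in LP macrophages, and was 42.7 to 64.8 RPKM in tumour monocytes against 45.7 to 54.6 in LP monocytes. In neutrophils it was 80 to 81.8 RPKM in tumours and 88.4 to 111 in LP. Unlike the shares, the place of neutrophils among the sums depended on the scaling. With summed-read library sizes tumour neutrophils were at 38.1 to 38.6 RPKM, under tumour monocytes at 41.9 to 67.7, and LP neutrophils at 55.7 to 76.1 overlapped with the other LP libraries at 54.3 to 63.8. The Egln1 share had its highest means in tumour macrophages, at 6.59% to 16.3% over their libraries, and its lowest in neutrophils, at 0.38% to 2.23%.

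**Figure D3:**
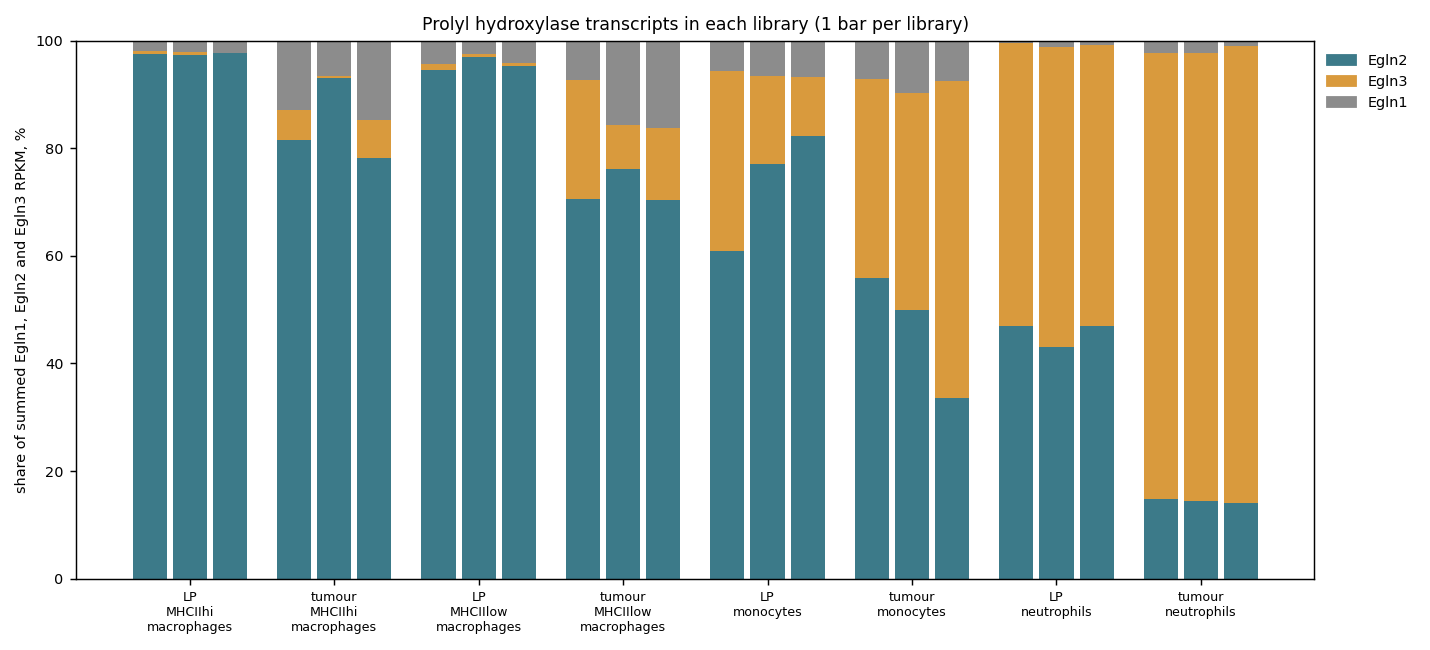
Share of Egln2, Egln3 and Egln1 in their summed RPKM (vertical axis, percent), with 1 bar per library and the 8 groups along the horizontal axis. Egln2 fills over 94% of each LP macrophage bar, and Egln3 fills at least 83% of each tumour neutrophil bar.

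Hif1an, the asparaginyl hydroxylase FIH (chr19:44562850-44576274, plus strand), also fell in tumours. LP MHCIIhi libraries were at 2.71, 2.85 and 2.87 log2 RPKM and tumour MHCIIhi libraries at 1.82, 1.57 and 2.25. LP monocytes were at 2.63, 2.91 and 3.16 and tumour monocytes at 2.01, 2.01 and 2.09. LP neutrophils were at 3.55, 3.51 and 3.68 and tumour neutrophils were at 1.93, 2.27 and 1.58. Tumour group means lay between 1.88 and 2.04, with neighbours overlapping, whereas LP means ran from 2.39 in MHCIIlow macrophages to 3.58 in neutrophils. With summed-read library sizes LP neutrophils, at 2.89 to 3.05, overlapped with LP monocytes at 2.90 to 3.38, and tumour neutrophils, at 0.53 to 1.17, were below all other tumour libraries, at 1.87 or above.

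Hif1an fell by 0.93 in MHCIIhi macrophages (SE 0.21, 1.91-fold, adjusted p = 0.00277) and by 1.66 in neutrophils (3.15-fold, adjusted p = 5.68e-06), both in all 13 alternatives. In monocytes it fell by 0.86 (1.81-fold, adjusted p = 0.0104), a call lost without LP monocyte library V (-0.73, adjusted p = 0.0647). In MHCIIlow macrophages the libraries were at 2.58, 2.52 and 2.09 in LP and 1.99, 1.96 and 2.02 in tumours. The difference of -0.40 (95% interval -0.83 to 0.03) had an adjusted p of 0.175, although the ranges did not overlap (they did with summed-read library sizes). In LP, neutrophils were higher than monocytes by 0.68 (adjusted p = 0.00821), a call lost without LP monocyte library III (0.55, adjusted p = 0.0503) and a difference that was -0.14 (adjusted p = 0.586) with summed-read library sizes. In tumours that difference was -0.11 (adjusted p = 0.668), but -1.25 (adjusted p = 3.54e-05) with summed-read library sizes and 0.23 with quantile normalization. The B and plasma cell markers moved with Hif1an in monocytes and neutrophils, and Ccr7 of the dendritic cell list in these and in MHCIIhi macrophages, the 3 populations where Hif1an fell, whereas Flt3 of that list was higher in tumour monocytes. Their part was not tested.

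Vhl, which encodes the subunit that recognises hydroxylated HIF-alpha (chr6:113623959-113631633, plus strand), rose in tumour MHCIIlow macrophages and fell in tumour neutrophils. LP MHCIIlow libraries were at 2.04, 0.43 and 2.71 log2 RPKM and tumour MHCIIlow libraries at 3.93, 4.10 and 4.34. LP MHCIIhi libraries were at 2.94, 3.18 and 2.60 and tumour MHCIIhi libraries at 3.81, 4.02 and 3.97. In neutrophils LP libraries were at 4.12, 4.39 and 4.01 and tumour libraries at 3.17, 3.21 and 3.18. Tumour libraries were above LP libraries without overlap in both macrophage subsets and below them in neutrophils. Monocytes were at 3.25, 3.12 and 3.40 in LP and 3.45, 3.78 and 4.40 in tumours, again without overlap, though with summed-read library sizes the monocyte ranges overlapped.

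Vhl rose in tumour MHCIIlow macrophages by 2.39 (SE 0.36, 5.25-fold, adjusted p = 5.88e-05). In the same libraries the epithelial gene Cdh1 went from 3 to 62 reads in LP to 396 to 892 in tumours and Krt18 from 26 to 180 to 188 to 446, while Muc2 was lower and Krt8, Krt19 and Epcam overlapped. Mcpt1, a mast cell protease gene, had 0 reads in LP and 16 to 262 in tumours, and 4 of the 9 neutrophil markers were higher. The part of these markers in the Vhl rise was not tested. LP MHCIIlow library III, with 87 Vhl reads, was the lowest of all, and without it the rise was 1.75 and passed, as in all 13 alternatives. In MHCIIhi macrophages the difference of 1.02 had an adjusted p of 0.0522, and it passed in 5 of 13 alternatives, with 0.00426 by voom. In monocytes it was 0.62 (adjusted p = 0.337). In neutrophils Vhl fell by 0.99 (adjusted p = 0.0426), a call lost without filter (adjusted p = 0.0509), with quantile normalization (-0.68, adjusted p = 0.243), by voom (adjusted p = 0.0543) and without any 1 of the 6 libraries, with adjusted p of 0.0772, 0.118 and 0.0607 without LP libraries III, IV and V and of 0.0838, 0.0786 and 0.0819 without tumour libraries I, II and V. In tumour neutrophils 8 of the 9 epithelial markers were higher than in LP without overlap and none lower. All 5 MHC class II genes, 5 of 12 endothelial and 3 of 6 B and plasma cell markers were lower. The part of these markers in the Vhl fall was not tested. The tumour effect in neutrophils minus that in macrophages, a comparison added after the values were seen, was -2.69 (SE 0.44, adjusted p = 0.000164) for Vhl and -0.99 (adjusted p = 0.00653) for Hif1an, 2 of 8 members against 26% of all genes. The Vhl value ranged from -2.37 to -3.23 over 25 alternatives and passed in each, and the Hif1an value was -0.39 (adjusted p = 0.307) with quantile normalization and -1.52 with summed-read library sizes. Between MHCIIlow and MHCIIhi macrophages no member differed in its tumour effect by limma, where 1.46% of all genes did. Vhl came nearest, at 1.37 (unadjusted p = 0.0145, adjusted p = 0.228), the 1 member with an unadjusted p under 0.05, and voom called none either. The Vhl difference passed in 1 of 19 alternatives, without LP MHCIIlow library IV (1.86, adjusted p = 0.0433). Over the alternatives it ranged from 0.72 to 1.86.

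Within LP, Vhl was lower in MHCIIlow macrophages than in monocytes by -1.53 (adjusted p = 0.0031). This was -0.88 (adjusted p = 0.0112) without LP MHCIIlow library III and had an adjusted p of 0.112 with only the compared libraries. MHCIIlow minus MHCIIhi macrophages in LP was -1.18 (adjusted p = 0.0507, or 0.0419 with the donor number as a block). This difference passed in 5 of 13 alternatives and ranged from -1.67 to -0.53 over them, with adjusted p up to 0.289. LP neutrophils were higher than LP monocytes by 0.92 (adjusted p = 0.0382), but by 0.09 (adjusted p = 0.847) with summed-read library sizes and with adjusted p of 0.153 with quantile normalization. That call was also lost without LP monocyte library III (adjusted p = 0.076), IV (0.0953) or V (0.0554) and without LP neutrophil library III (0.068) or IV (0.112). The tumour effect of Vhl in neutrophils minus that in monocytes was -1.61 (adjusted p = 0.0544, or 0.0448 with the block).

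**Figure D4:**
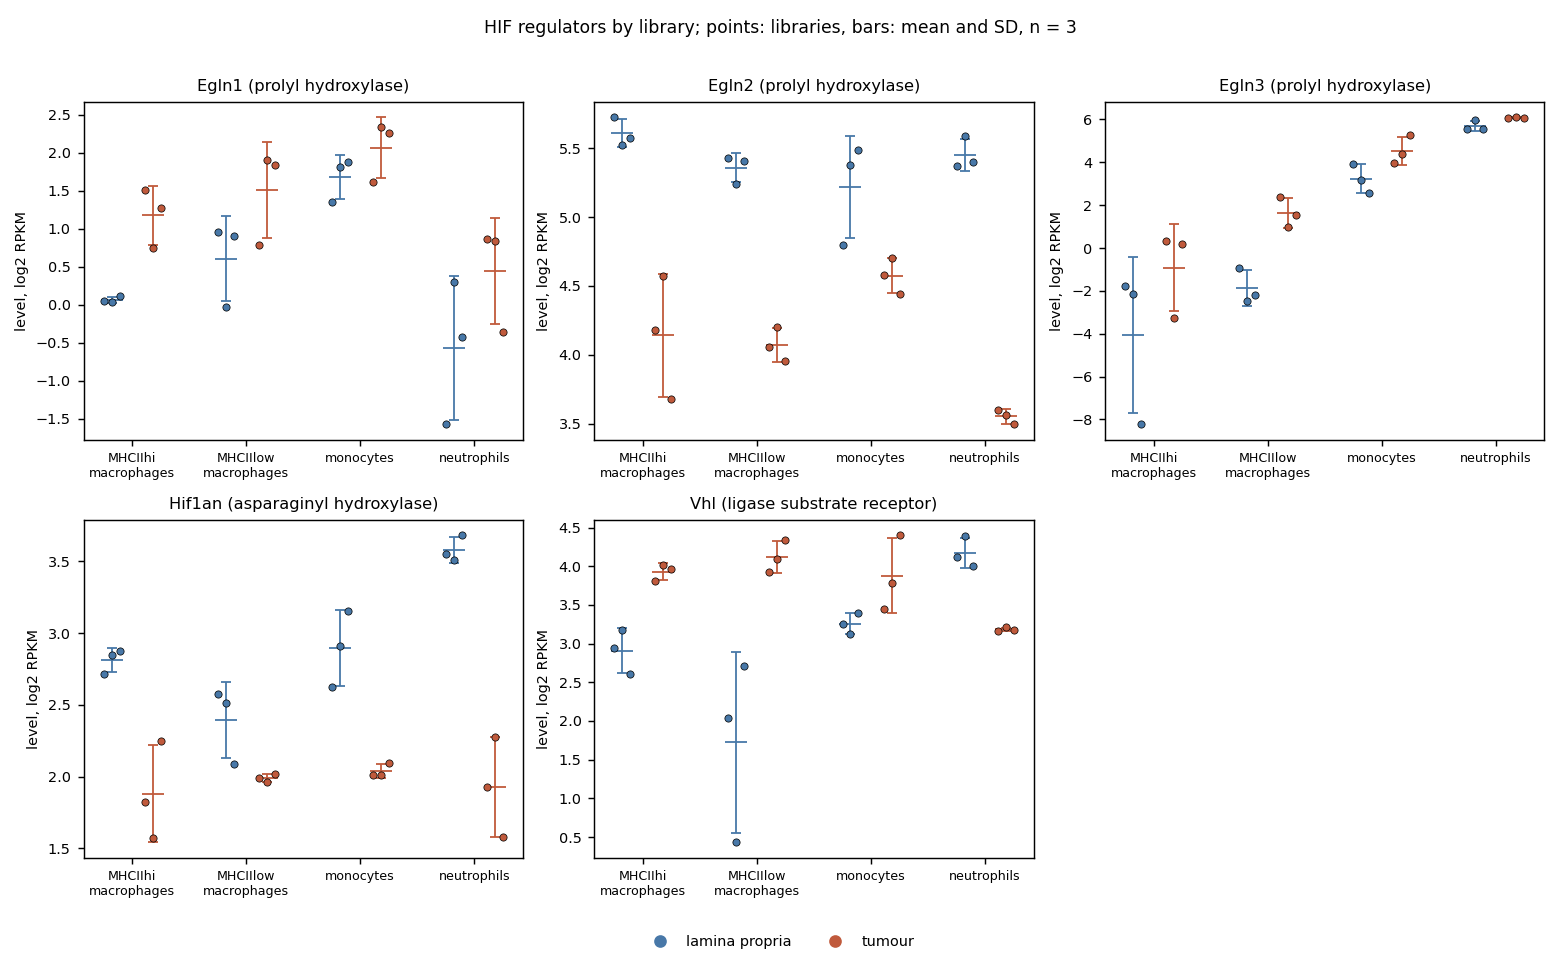
Levels of Egln1, Egln2, Egln3, Hif1an and Vhl in log2 RPKM (vertical axes, each with its own scale) in each library, by population, with LP in blue and tumour in red. Points are libraries and bars the mean and SD of 3. Tumour points lie under LP points in each population for Egln2, and for Vhl they lie above them in macrophages and under them in neutrophils.

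Other genes of the pathway were taken from 5 lists, chosen for their role but with earlier results of these data known. Of the 4 relatives of HIF in the bHLH-PAS family that were tested, 1 fell in each macrophage subset and 2 in neutrophils, and none rose. Of all genes, 8.01% rose and 11.5% fell in MHCIIhi macrophages, 11.5% and 11.8% in MHCIIlow macrophages, 4.86% and 4.43% in monocytes and 13.1% and 19% in neutrophils, and nothing is read from the counts of the first 3 lists, of few genes each, beyond those shares. Ahr, the receptor for aryl hydrocarbons that also dimerises with ARNT, fell in tumours by 1.55 in MHCIIhi macrophages (adjusted p = 0.0028), by 0.96 in MHCIIlow macrophages (adjusted p = 0.048) and by 1.71 in neutrophils (adjusted p = 0.000754). The MHCIIlow call was lost without filter (adjusted p = 0.0563) and without LP MHCIIlow library II (0.0588), III (0.162) or IV (0.083) or tumour MHCIIlow library V (0.106) or VII (0.163), and the neutrophil call with only the libraries compared (0.0874). Of 14 ubiquitin ligase and stability factors, 1 rose and 1 fell in MHCIIhi macrophages, 1 rose and 4 fell in MHCIIlow macrophages, none changed in monocytes, and 2 rose and 3 fell in neutrophils. Os9, which aids prolyl hydroxylation of HIF-1alpha, rose by 0.38 and 0.81 in the macrophage subsets (adjusted p = 0.0174 and 1.42e-05), while Hsp90aa1, a chaperone of HIF-1alpha, fell by 1.19 and 1.77 (adjusted p = 0.0094 and 0.000273). The Os9 call in MHCIIhi macrophages was lost without LP MHCIIhi library IV (adjusted p = 0.0568) or V (0.0721) or tumour MHCIIhi library V (0.0754), and that of Hsp90aa1 in MHCIIlow macrophages with only the libraries compared (0.0628), where 1 gene of this list fell. Also lower in MHCIIlow macrophages were Siah1a, Eloc and Wsb1. The Eloc call was lost without LP MHCIIlow library IV (adjusted p = 0.0632) or tumour MHCIIlow library I (0.0512). In neutrophils Hsp90ab1 rose by 0.91 and Wsb1, a ligase subunit that targets VHL, by 0.81 (adjusted p = 0.00592 and 0.00096), and Siah1a, Siah2 and Rbx1 fell. Both rises were lost with quantile normalization (adjusted p = 0.0921 and 0.0782) and with summed-read library sizes (0.131 and 0.14), and the number of falls was then 0 and 7. Of these, Siah1a, Siah2, Rbx1 and, in MHCIIlow macrophages, Wsb1 fall outside the rule for named genes and are named after their values were seen. Of 10 coactivators and corepressors, 1 rose and 2 fell in MHCIIhi macrophages, 3 fell in MHCIIlow macrophages, 1 rose and 1 fell in monocytes, and 1 rose and 3 fell in neutrophils. The number that fell in neutrophils was 0 with quantile normalization, with only the libraries compared and without LP neutrophil library V, 1 by voom and without tumour neutrophil library II, and 5 with summed-read library sizes. In both macrophage subsets the falls included the coactivator gene Crebbp, by 0.76 and 0.74 (adjusted p = 0.000856 and 0.000874), the latter with an adjusted p of 0.0516 with only the libraries compared.

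Targets of HIF rose more often than they fell. Of 19 glycolytic targets, 8 rose and 2 fell in MHCIIhi macrophages (of all genes 8.01% rose and 11.5% fell), 13 rose and 2 fell in MHCIIlow macrophages (11.5% and 11.8%), 11 rose and none fell in monocytes (4.86% and 4.43%), and 12 rose and 1 fell in neutrophils (13.1% and 19%). Their median tumour minus LP difference was 0.46, 1.25, 0.73 and 0.81, against medians over all genes of 0.00, 0.06, 0.00 and -0.12. With summed-read library sizes the neutrophil median was 0.34 with 7 higher and 2 lower, against a median over all genes of -0.59. The study had itself described glycolytic genes from the same samples, and the counts are no independent support for a direction. Of the 9 epithelial markers, 8 were higher without overlap in tumour neutrophils and 3 in tumour monocytes, and none lower. Of the 9 neutrophil markers, 4 were higher in tumour MHCIIlow macrophages and none lower. The part of these markers in the counts of targets was not tested. Slc2a1, the glucose transporter GLUT1, rose by 1.01 in MHCIIhi macrophages and by 0.98 in monocytes (adjusted p = 0.000107 and 0.000431), Slc16a3, which exports lactate, by 2.38 in MHCIIlow macrophages (adjusted p = 2.12e-08) and Ldha, lactate dehydrogenase A, by 1.28 in neutrophils (adjusted p = 4.95e-05). Against these, the hexokinase gene Hk1 fell by 1.98 in MHCIIlow macrophages (adjusted p = 3.74e-06) and Pfkp, a phosphofructokinase, by 1.62 in MHCIIhi macrophages (adjusted p = 9.83e-07). The Ldha rise in neutrophils was smaller with quantile normalization (0.79) and with summed-read library sizes (0.81) and passed with either.

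Of 28 other targets tested, 7, 11, 9 and 10 rose in MHCIIhi macrophages, MHCIIlow macrophages, monocytes and neutrophils, and 1, 1, 0 and 2 fell. Bnip3, a mitophagy receptor, rose by 1.96 and 2.35 in the macrophage subsets (adjusted p = 9.78e-07 and 1.08e-07). Ddit4, an inhibitor of mTORC1 signalling, rose by 2.24 in MHCIIlow macrophages, by 2.27 in monocytes and by 1.5 in neutrophils (adjusted p = 3.39e-05, 0.000147 and 0.00139). Ndrg1, a stress gene that is also a common hypoxia marker, went the other way in both macrophage subsets, with falls of 4.63 and 3.78 (adjusted p = 7.93e-08 and 6.36e-07). Between MHCIIlow and MHCIIhi macrophages, tumour cells had 7 glycolytic targets higher and none lower (0.567% of all genes each way), such as Pgk1 (1.03, adjusted p = 0.0043), whereas in LP none were higher and 2 lower (2.13% and 5.57% of all genes). Of the 28 other targets, 3 were higher and none lower in tumours, and 7 were higher and 1 lower in LP. With only the libraries compared no target of either list passed in tumours (Pgk1 adjusted p = 0.261). The 7 glycolytic targets became 3 without tumour MHCIIhi library VII and 2 without tumour MHCIIlow library V, where 1 other target passed each time. The 7 other targets in LP became 1 without LP MHCIIhi library IV, 4 without LP MHCIIhi library III or V or LP MHCIIlow library II or III, 3 without LP MHCIIlow library IV and 2 with only the libraries compared.

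**Figure D5:**
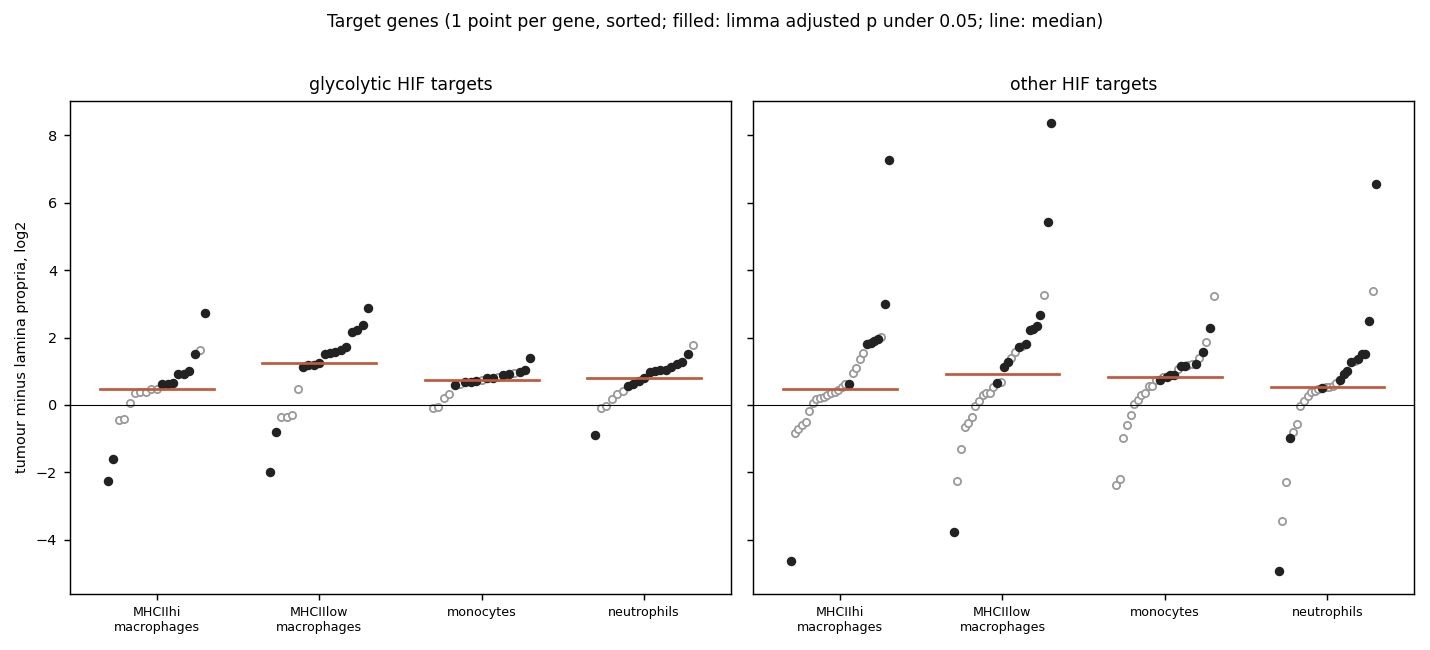
Tumour minus LP difference in log2 RPKM (vertical axis) of 19 glycolytic and 28 other HIF target genes in the 4 populations, 1 point per gene and sorted by size. Filled points passed an adjusted p of 0.05, and the red line is the median, at 1.25 for the glycolytic targets in MHCIIlow macrophages.

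Across the 24 libraries few pairs of members were strongly correlated. These correlations describe libraries that share cell types and carry no test. They use the deposited values and were not repeated with summed-read library sizes. With that scaling mean Arnt was 13.9 RPKM in LP and 10.2 in tumour neutrophils, within the macrophage means of 8.92 to 15.9. Mean Hif1a in neutrophils, at 235 and 148 RPKM, stayed above that of macrophages. Hif1a varied with Arnt (r = 0.855) and Egln3 (r = 0.824), and Egln2 with Hif1an (r = 0.731), whereas Egln2 and Hif1a were unrelated (r = -0.02). Among 5676 genes with a mean of at least 10 RPKM in a group, those most like Hif1a were Samhd1 (r = 0.97), Msn (0.963) and Slpi (0.961), and those most like Egln3 were Cd177 (0.926), which encodes a neutrophil surface protein, Slc25a37 (0.926) and Rab32 (0.905). Sf3b4 (0.92) and Tor1aip2 (0.91) were most like Egln2, and Mefv (0.94) and St3gal4 (0.938) most like Arnt. An immunoglobulin segment, Ighv10-3 (0.895), was as close to Hif1an as Ccdc71 (0.895), and Edem2 (0.819) was closest to Vhl. The closest genes to Egln1 and Epas1 reached 0.845 (Adam10) and 0.769 (Tusc2).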

How the data were processed

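SMARTSeq v2 cDNA of 24 libraries was sequenced from both ends. Alignment by the authors used STAR 2.3 and the GRCm38/mm10 genome, after which they counted reads on GENCODE genes with featureCounts 1.5 (versions from the submitters' processing notes), filtered out genes with few reads, and deposited log2 RPKM, a log2 scale per gene length and library size with a small prior count (0.25 reads on average). Whether strand was used is not given in the sources used here. Read counts were worked back from these values (of 415224, 100% lay within 0.01 of a whole number) and served for depth, a floor of 3 reads and voom. Intervals cover the spread between libraries.

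The 8 members, the pathway lists and the comparisons were chosen with earlier results of these data known. Limma 3.58.1 (R 4.3.3, trend, two-sided) was fitted on the deposited values with a mean for each of 8 groups. The 12878 genes tested reached 1 RPKM on average in some group, and p-values were adjusted by Benjamini-Hochberg within each comparison over all genes tested. The fit was also run on simulated data, and nothing is read from that here. Comparisons were 15 planned and 1 added after seeing the data. From each list the text names up to 3 called genes with the largest change, no overlap and a mean of at least 10 RPKM in the higher group, and for each member its closest genes by Pearson r.

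Alternatives were log2(RPKM + 1), no filter, quantile normalization, only the libraries compared, the donor number as a block, voom on recovered reads, leaving out each library and, added later, library sizes as summed reads. The labels' donor number pairs libraries of a tissue. Deviations from group means correlated with r from -0.066 to 0.255 (median 0.0169) over 29 such pairs and a median of -0.0114 over 79 other pairs, and duplicateCorrelation gave 0.0476. Coordinates were from GENCODE M21. Computation used python 3.11.15, numpy 2.4.6, pandas 2.3.3 and matplotlib 3.10.9.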

Additional observations from a re-analysis of the deposited data

Results flagged for a closer look

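For 3 members the tumour effect differed between populations by an interaction term in limma. The Egln2 effect in neutrophils minus that in monocytes was -1.25 (adjusted p = 0.00457), and it passed in 18 of 19 alternatives, all but quantile normalization (-0.87, adjusted p = 0.0636). The Egln2 effect in macrophages minus that in monocytes was -0.73 (adjusted p = 0.0439), a call made in 9 of 25 alternatives. In the comparison added after the values were seen, the effect in neutrophils minus that in macrophages was -2.69 for Vhl (adjusted p = 0.000164) and -0.99 for Hif1an (adjusted p = 0.00653). Of the 8 members, 1 passed for neutrophils minus monocytes (9.11% of all genes) and 1 for macrophages minus monocytes (9.19%). For neutrophils minus macrophages 2 passed (26% of all genes). These counts are near the shares of all genes. What underlies the differences was not tested.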

How the results depend on the processing

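Of 37 member and comparison pairs that passed, 21 passed in every alternative, though Hif1a in tumour neutrophils against monocytes did so with the opposite sign under 2 of them. Among 1081 alternative values for 73 of the 128 pairs, 922 kept their direction and side of the threshold, 67 fell short of it, 72 newly passed and 20 changed sign. Some of the sign changes were with summed-read library sizes, which move all genes of a library alike.

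The count of members called was 4 (MHCIIhi, tumour against LP) and 1 (monocytes) with only the libraries compared, and 5 (neutrophils) with summed-read library sizes. For MHCIIlow against MHCIIhi macrophages it was 3 in LP on log2(RPKM + 1), 2 each with quantile normalization, the replicate block and voom and 0 with summed reads, and 0 in tumours with only the libraries compared. For neutrophils against monocytes it was 5 in LP by voom and 7 in tumours with summed reads. For the tumour effect in neutrophils minus monocytes it was 2 each on log2(RPKM + 1), with only the libraries compared, with the replicate block and by voom, 0 with quantile normalization and 3 with summed reads. For macrophages minus monocytes it was 0 each without filter, with only the libraries compared and with summed reads, 3 with quantile normalization and 2 by voom, and for neutrophils minus macrophages 4 with summed reads.

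With 1 library left out the counts were 0 to 2 (monocytes, tumour against LP), 0 to 2 and 0 to 1 (MHCIIlow against MHCIIhi, LP and tumours), 2 to 4 (LP MHCIIhi macrophages against monocytes), 1 to 4 (LP neutrophils against monocytes), 0 to 1 (tumour effect, MHCIIlow minus MHCIIhi), 1 to 2 (neutrophils minus monocytes) and 0 to 1 (macrophages minus monocytes). A group left with 2 libraries shared the spread of the others.

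Among the 73 pairs counted above, signs changed as listed below. Pairs outside that count also changed sign in some alternative. Examples for tumour against LP are Egln3 in neutrophils (down to -0.0654) and Hif1a in MHCIIlow macrophages (down to -0.0662). For Arnt, tumour against LP neutrophils was -0.0112 by voom, -0.466 with summed reads and -0.14 to 0.092 with 1 library left out, and neutrophils minus macrophages -0.0931 with summed reads. LP neutrophils against monocytes, with quantile normalization and summed reads, was -0.88 and -0.49 for Hif1a, -0.0572 and -0.597 for Arnt and -0.18 and -0.59 for Egln2, and with summed reads -0.14 for Hif1an. In tumours these were -0.68 and -0.65 for Hif1a and -0.013 and -0.898 for Arnt, and for Hif1an 0.23 with quantile normalization and -0.285 to 0.0634 with 1 library left out. Egln2 in LP MHCIIlow macrophages against monocytes was -0.0722 to 0.272 with 1 library left out. Those with summed reads follow from a scaling that moves all genes of a library alike, and the cause of the others was not tested.

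The replicate block, tissue and donor number together, added 3 calls with adjusted p of 0.0419, 0.0448 and 0.0448, given with their results, and changed no other call. Over 13 settings the count of glycolytic targets that rose was 5 to 11, 13 to 14, 6 to 12 and 7 to 14 in MHCIIhi macrophages, MHCIIlow macrophages, monocytes and neutrophils, and that of other targets 5 to 9, 9 to 12, 6 to 11 and 6 to 13. Epas1 and Egln3 each had a library at 0 reads, where the listed value depends on the prior count.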
